A study of Mus musculus with 4 samples.

Results

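The enzymes described here carry out the urea cycle and the breakdown of amino acids in the liver. They were 46 genes chosen by name, and their values were the rows of a table of liver gene expression whose symbol was one of these names, with rows of the same symbol summed. Of the 46 genes, 44 had a row of their own, out of 22849 symbols in the whole table. The livers came from male C57BL/6 mice, an inbred strain, whose food was a diet of 60% fat. The vehicle group ate this diet without UAB126 and the UAB126 group with it, at 1.2 g per kg of diet, in each case for 12 weeks. UAB126 is a compound known here by its code only, and the sources used here give no age for the mice. Each group had 2 libraries, called vehicle 1, vehicle 2, UAB126 1 and UAB126 2. No label says that the libraries of a group came from separate animals, so every p-value measures the spread between these libraries, which may be technical.

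When amino acids are burned for energy or turned into glucose, their nitrogen is released as ammonia or moved onto glutamate and aspartate, and the urea cycle of periportal hepatocytes makes urea from it. The carbon skeletons follow separate routes for each amino acid, several of which run almost only in liver and kidney. Glucagon, glucocorticoids and fasting are known to raise the RNA of many of these enzymes, and methionine breakdown also supplies methyl groups, glutathione and taurine.

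Expression was given as FPKM, fragments scaled to transcript length and library size, so levels can be compared between genes of different length. The sources used here do not say how library size was taken. Differences between groups were taken on the scale of log2(FPKM + 1) and tested with limma across the 10786 symbols whose mean was 1 FPKM or more, with Benjamini-Hochberg adjustment over all of them and a threshold of 0.05. For these differences ± is limma's moderated standard error with n = 2 per group. The absolute depth is unknown. Relative to UAB126 1, low values fell on steps that gave a depth of 0.691 in vehicle 1, 0.405 in vehicle 2 and 0.701 in UAB126 2. These steps follow the library scaling, so they give sequencing depth only if that scaling did. The libraries also differed by transcript length, since UAB126 minus vehicle had a median of -0.42 among the 980 symbols with the shortest transcripts and 0.14 among the 977 with the longest. Of 11 hepatocyte markers all passed the filter on low values, and both UAB126 libraries lay below in 6 and above in 2, with a median log2 difference of -0.75. Albumin (Alb) is listed at 0 in every library except vehicle 2. Of 8 Kupffer cell markers both UAB126 libraries lay above in 4 and below in 0, with a median of 0.71. For comparison, 22.7% of all tested symbols lay above and 26.9% below, with a median of -0.03. At 50 FPKM or more, the level of the hepatocyte markers, 9.84% of symbols lay above and 45.5% below, with a median of -0.31. From 500 FPKM upwards, the level of most hepatocyte markers, 6.16% lay above and 59.4% below, with a median of -0.58. The part of the marker shifts in the values of the enzymes was not tested. The 6 kidney tubule markers summed to 0.416 and 0.104 FPKM in vehicle, to 0.254 FPKM in UAB126 1 and to 35.0 FPKM in UAB126 2, nearly all of it from Kap at 32.8 FPKM. Skeletal muscle markers, 4 in all, summed to 15.0 and 78.1 FPKM in vehicle and to 2.34 and 4.56 FPKM with UAB126.

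Among the 43 enzyme genes that passed the filter on low values, 0 differed between the groups past the threshold (limma, lowest adjusted p = 0.211, for Csad). Over all tested symbols, 0.0464% passed as higher and 0.0927% as lower with UAB126. At an unadjusted p under 0.05, 2 enzyme genes were higher (Csad and Aass) and 7 lower (Hgd, Bhmt, Ahcy, Bcat2, Gstz1, Gnmt and Uroc1), which is 4.65% and 16.3% of 43, against 5.03% and 8.38% of all tested symbols (13.4% in either direction). In whole liver, fewer cells of a kind and less RNA per cell cannot be told apart. Both UAB126 libraries lay below both vehicle libraries in 20 enzyme genes (46.5%) and above them in 7 (16.3%), while the groups overlapped in 16. The corresponding shares of all tested symbols were 26.9% below and 22.7% above. An exact permutation test of 2 against 2 libraries cannot give a p under 0.333.

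These enzymes are abundant transcripts, and abundant transcripts as a whole lay lower with UAB126 on the deposited scale. FPKM summed over all symbols also differed by group, at 5619983 and 11337255 under vehicle and 2298997 and 2771560 under UAB126. The part of this gap in the lower values was not tested. Of the 43 genes, 39 averaged 50 FPKM or more. Among the 1768 symbols at that level, 45.5% had both UAB126 libraries below and 9.84% above, against 48.7% and 17.9% of the 39 enzyme genes, so the share below was near the background for the level. At an unadjusted p under 0.05, 15.4% of those symbols were lower and 2.43% higher, against 6 and 2 of the 39 genes. The median log2 difference was -0.31 for those 1768 symbols and -0.25 for the 39 genes. For the 276 symbols from 500 FPKM upwards the median was -0.58, and for the 12 enzyme genes among them it was -0.33. Over all 43 genes the median was -0.17, against -0.03 for all tested symbols. The median of the 43 was 0.10 after quantile normalization, a scaling that gives every library the same distribution of values.

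**Figure D1:**
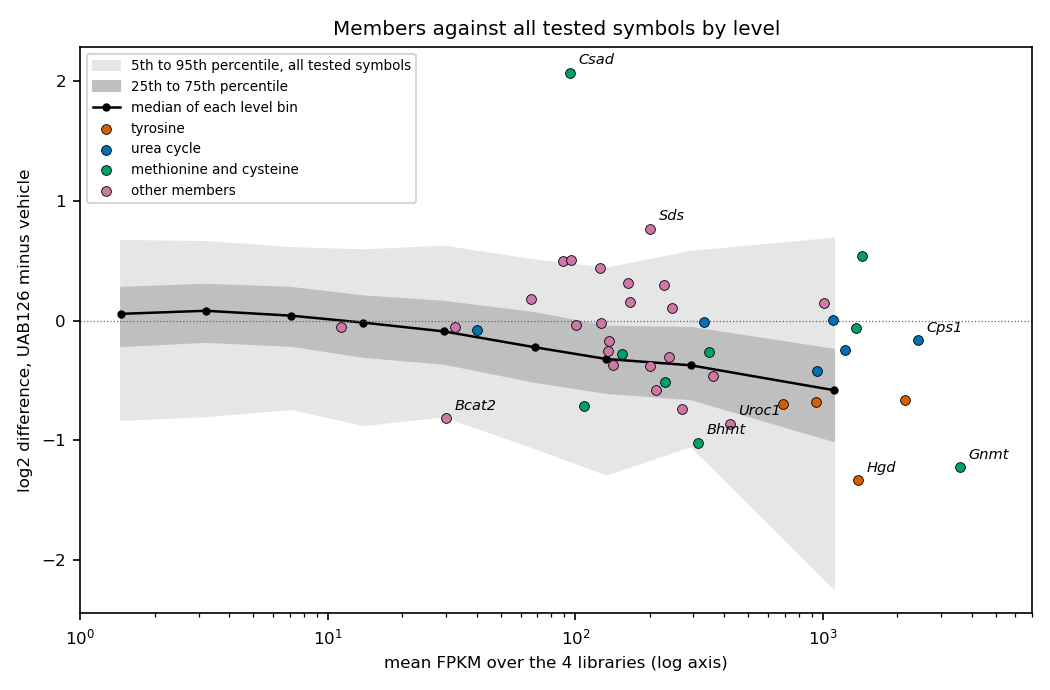
Log2 difference of UAB126 from vehicle on the log2(FPKM + 1) scale (vertical axis) against the mean FPKM over the 4 libraries (log axis) for the 43 enzyme genes, with the median and percentile bands of all 10786 tested symbols in 9 bins of level. The median of all symbols goes down to -0.58 in the bin from 500 FPKM, where Hpd, Fah and Gstz1 lie close to it, whereas Csad at 2.07 lies far above its bin.

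The enzyme with the largest difference was Csad, cysteine sulfinic acid decarboxylase, which makes the precursor of taurine. It was at 41.9 and 27.5 FPKM under vehicle and 102 and 209.9 under UAB126. Both UAB126 libraries were far above both vehicle libraries, although they differed by a factor of 2.07 between themselves. The ratio of means was 4.49 and the log2 difference 2.07 ± 0.41 (95% interval 1.03 to 3.11), which ranked 172 among all symbols by p and did not pass (limma adjusted p = 0.211). It ranged from 1.55 to 2.59 over the fits without 1 library and passed only without vehicle 1 (limma adjusted p = 0.0489, log2 difference 2.37), while the adjusted p reached 0.6095 in other alternatives. Kap, the kidney marker, is listed at 0 in UAB126 1 and was at 32.8 FPKM in UAB126 2, the library with the higher Csad level, and its part in the Csad difference was not tested. Csad lies on chromosome 15 at 102176999 to 102204724 (minus strand, GRCm38, GENCODE M21). Over 1476 bases it overlaps Zfp740 on the opposite strand, which was at 7.001 and 5.41 FPKM under vehicle and 8.75 and 9.22 under UAB126. Reads of the overlap cannot be told apart because no strand setting is given.

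The promoter table used here holds 2 windows for Csad, whose deposited row combines 7 start sites. These windows, from 250 bases before to 50 bases after the start, are shown because Csad differed most. The window of Hgd is shown beside them because Hgd had the lowest p among genes that were lower, and it holds 2 of the motif matches described after the sequences. All are from RefSeq's GRCm38.p6 and run 5′ to 3′ on the gene's strand, with capitals for matches to TTGCNNAA.
Csad, chr15:102205003-102205302, minus strand: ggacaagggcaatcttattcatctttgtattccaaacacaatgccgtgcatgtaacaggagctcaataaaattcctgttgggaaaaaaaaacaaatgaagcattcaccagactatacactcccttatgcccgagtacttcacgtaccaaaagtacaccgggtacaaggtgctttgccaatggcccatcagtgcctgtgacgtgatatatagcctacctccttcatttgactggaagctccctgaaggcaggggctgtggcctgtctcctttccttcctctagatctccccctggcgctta
Csad, chr15:102188994-102189293, minus strand: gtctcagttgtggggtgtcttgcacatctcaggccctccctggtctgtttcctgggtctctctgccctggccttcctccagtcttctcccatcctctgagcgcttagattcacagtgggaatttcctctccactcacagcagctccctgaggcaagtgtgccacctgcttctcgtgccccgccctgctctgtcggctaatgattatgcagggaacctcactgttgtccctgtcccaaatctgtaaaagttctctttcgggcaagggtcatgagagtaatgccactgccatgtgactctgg
Hgd, chr16:37579903-37580202, plus strand: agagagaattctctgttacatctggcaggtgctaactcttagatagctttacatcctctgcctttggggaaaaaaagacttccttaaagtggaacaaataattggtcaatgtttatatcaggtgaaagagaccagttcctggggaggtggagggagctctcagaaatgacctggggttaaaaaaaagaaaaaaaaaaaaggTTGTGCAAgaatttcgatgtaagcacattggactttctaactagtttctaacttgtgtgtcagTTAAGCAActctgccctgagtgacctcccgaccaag

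Promoter windows were found for 33 of the 46 genes, 37 windows in all. On both strands they were searched for 8 motifs, written as the letters TTGCNNAA (C/EBP), TGACGTCA (CRE), TGATGNAA (C/EBP-ATF composite), GTAAACA (FOX), CAAAGTCCA (HNF4) and the HNF1, NRF2 and PPAR elements, the last 3 given by name alone. TTGCNNAA was in the windows of 5 genes (Aass, Gcdh, Hal, Hgd and Prodh2), and in 10.8% of the 32851 windows of all genes. TGATGNAA was in that of Got1 (3.97% of all windows) and the NRF2 element in that of Tdo2 (3.04%). The other 5 motifs were in none of the 37 windows; their shares of all windows were 1.79% for CRE, 3.65% for FOX, 0.475% for HNF4, 0.00913% for HNF1 and 0.0396% for PPAR. Each motif was counted on its own even where it overlapped another, and a match is a stretch of letters, not a measured binding site.

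The rest of the methionine and cysteine group, 9 genes with Csad, lay mostly lower, as did symbols of like level. Both UAB126 libraries lay below in 5 of the 9 (55.6%) and above in 1 (11.1%), against 45.5% and 9.84% of symbols from 50 FPKM upwards. The median log2 difference was -0.28 for the group and -0.31 for those symbols. Gnmt, glycine N-methyltransferase, which uses up excess methyl groups and has the highest level of the 43 genes (chromosome 17, 46725664 to 46729168), was at 3569 and 6473 FPKM under vehicle and 1523 and 2765 under UAB126. Its log2 difference was -1.23 ± 0.47 (limma adjusted p = 0.367), and -0.78 with the length trend removed, a correction that bears on its short transcript of 1035 bases. Bhmt, which remakes methionine from homocysteine with betaine (chromosome 13, 93616675 to 93637961), was at 449.8 and 387 FPKM under vehicle and 258 and 163 under UAB126. The groups of both genes did not overlap, and for Bhmt the log2 difference of -1.02 ± 0.31 was -1.04 with the length trend removed (limma adjusted p = 0.299 without that removal). Ahcy, which splits S-adenosylhomocysteine, was at 124 and 146 FPKM against 71.5 and 92.9 FPKM, or on the log2 scale a difference of -0.72 ± 0.24 (limma adjusted p = 0.324). Gnmt, Bhmt and Ahcy thus lay lower with UAB126 in every alternative, some of which could not turn a direction, without passing the test in any.

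Bhmt2, the neighbour of Bhmt that takes its methyl group from S-methylmethionine, was at 150.4 and 189 FPKM under vehicle and 138 and 139 under UAB126, a narrower gap than that of Bhmt. Of the transsulfuration enzymes, which turn homocysteine into cysteine, Cbs overlapped between groups, at 343 and 413 against 258 and 379 FPKM. Cth did not overlap, at 224 and 319 against 160.2 and 217 FPKM (log2 difference -0.52 ± 0.30, limma adjusted p = 0.467). Cdo1, cysteine dioxygenase, stands directly before Csad on the way to taurine. It was at 1289 and 1443 FPKM under vehicle and 985 and 1739 under UAB126, so that the groups overlapped (log2 difference -0.06 ± 0.37, 95% interval -0.98 to 0.87).

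Mat1a, the liver enzyme that makes S-adenosylmethionine, has 2 rows in the table. The row with the higher mean was at 1067 and 890.4 FPKM under vehicle and 896 and 1247 under UAB126. The other row is listed at 0 in vehicle 2 and was at 385, 399.6 and 853 FPKM in vehicle 1, UAB126 1 and UAB126 2. The log2 difference was 0.54 ± 0.40 for the sum of rows and 0.12 ± 0.30 for the higher row alone, so the size rests on the row listed at 0, and the groups overlapped either way.

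All 4 enzymes of tyrosine breakdown had both UAB126 libraries below both vehicle libraries, as did 59.4% of the 276 symbols from 500 FPKM upwards, the level of all 4. Hgd, homogentisate dioxygenase, differed most, with 1451 and 2552 FPKM under vehicle, 634 and 916 under UAB126, and a ratio of means of 2.58. On the log2 scale it differed by -1.34 ± 0.39 (95% interval -2.33 to -0.34, limma adjusted p = 0.294), and -1.11 with the length trend removed. Hgd lies on chromosome 16 at 37580153 to 37632020 (GRCm38).

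Hpd, the step before Hgd, was at 2277 and 2956 FPKM under vehicle and 1252 and 2133 under UAB126, so that UAB126 2 came close to vehicle 1. It has 2 rows, of which the smaller stayed between 23.4 and 35.4 FPKM. Gstz1, the isomerase after Hgd, was at 842 and 857 FPKM against 491 and 559 FPKM, with little spread inside either group (log2 difference -0.70 ± 0.25, limma adjusted p = 0.343). Fah, which makes the last cut to fumarate and acetoacetate, was at 982 and 1325 against 633 and 802 FPKM. The median of the 4 differences was -0.69, close to the -0.58 of all symbols at 500 FPKM or more, and it was -0.19 after quantile normalization. Beyond these enzymes the route had a gene on the other side: Tat, the aminotransferase that starts tyrosine breakdown and a textbook glucocorticoid target, was at 393 and 513 FPKM under vehicle and 1118 and 1431 under UAB126 (log2 difference 1.49 ± 0.29, limma adjusted p = 0.209).

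**Figure D2:**
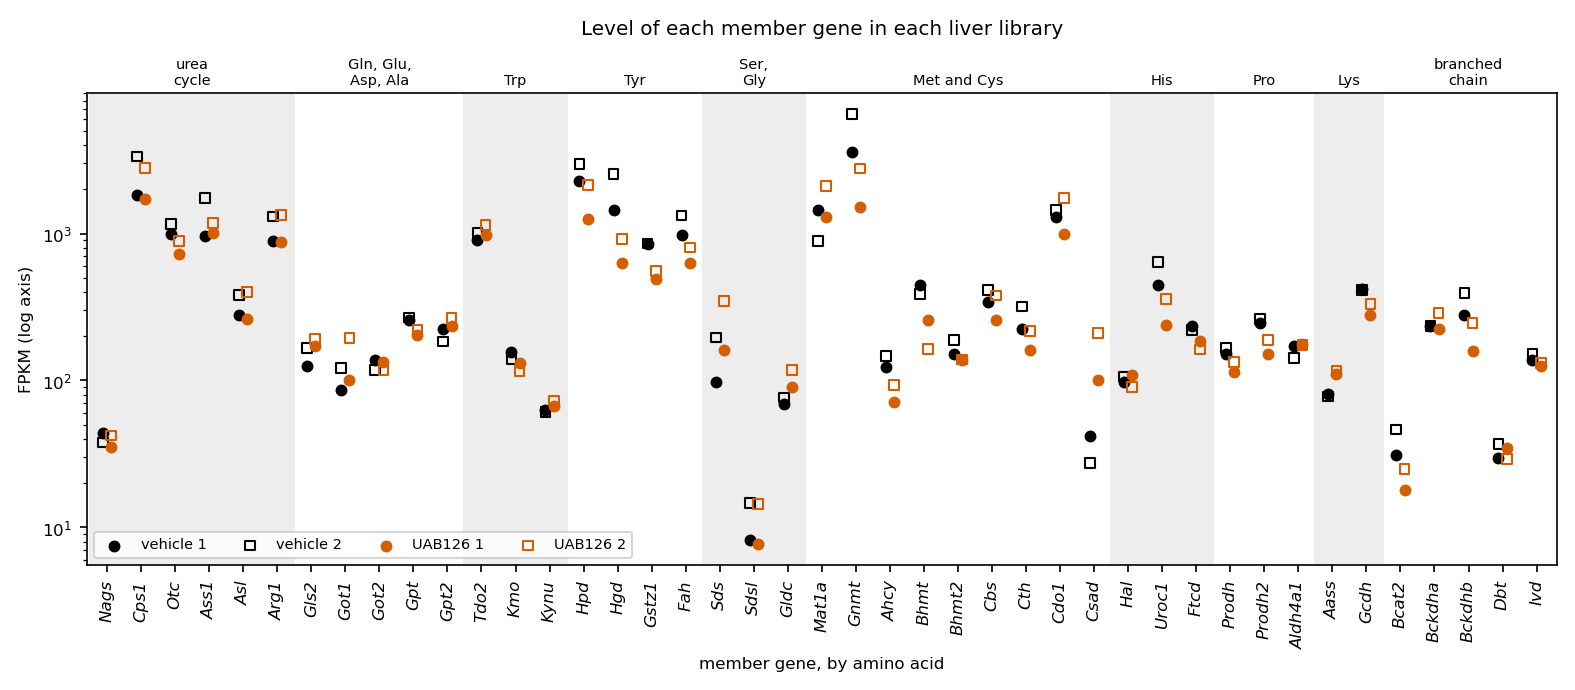
FPKM on a log axis of the 43 tested enzyme genes in each of the 4 libraries, grouped by amino acid (vehicle in black and UAB126 in orange, with circles for library 1 and squares for library 2). Both UAB126 points lie below both vehicle points in all 4 tyrosine genes and above them in Csad, while the urea cycle genes overlap except for Otc.

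In 5 of the 6 urea cycle genes the groups overlapped. Cps1, carbamoyl-phosphate synthetase, the entry enzyme of the cycle, was at 1816 and 3339.6 FPKM under vehicle and 1719.7 and 2804 under UAB126. Its replicate 2 exceeded replicate 1 by a factor of 1.84 in vehicle and 1.63 with UAB126, and its log2 difference was -0.17 ± 0.44 (95% interval -1.29 to 0.96). Ass1, which joins citrulline and aspartate, was at 968 and 1741 FPKM against 1015 and 1177 FPKM. Asl, which releases arginine, was at 279 and 382 against 262 and 398 FPKM, and the ratio of its means was 0.998. The last enzyme, Arg1 (arginase), had a ratio of means of 1.006, with 892 and 1304 FPKM under vehicle and 870.0 and 1339 under UAB126.

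Otc, which makes citrulline in mitochondria, was the exception in that both UAB126 libraries, at 724 and 893 FPKM, lay below the vehicle libraries at 993 and 1167 FPKM. Its log2 difference of -0.42 ± 0.28 did not pass (limma adjusted p = 0.505). At its level, from 500 FPKM upwards, 59.4% of 276 symbols had both UAB126 libraries below, and the median difference was -0.58. Nags, which makes the activator of Cps1, was the lowest of the 6 genes, at 44.1 and 37.8 FPKM under vehicle and 35.5 and 42.2 under UAB126. The 6 differences ran from -0.42 to 0.00 with a median of -0.12, which was 0.31 after quantile normalization. With n = 2 the 95% intervals were wide, from -1.19 to 0.69 for Ass1, -0.83 to 0.80 for Asl and -0.91 to 0.91 for Arg1, so changes within them were not detectable here.

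Among further genes next to the cycle, the widest gap was that of Oat. Oat, ornithine aminotransferase, which links ornithine to glutamate and proline, was at 539.6 and 599 FPKM under vehicle and 87.0 and 106 under UAB126 (log2 difference -2.56 ± 0.24, limma adjusted p = 0.0531). Of the carriers that bring substrates across the mitochondrial membrane, Slc25a15 for ornithine was at 82.2 and 74.3 against 88.7 and 83.8 FPKM. Slc25a13, the aspartate-glutamate carrier, was at 142 and 131 against 97.5 and 119 FPKM.

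In the group of glutamine, glutamate, aspartate and alanine enzymes, none of the 5 tested genes passed. Both UAB126 libraries lay above in 2 of them and below in 1, against 9.84% above and 45.5% below among symbols from 50 FPKM upwards. Gls2, the liver glutaminase that frees ammonia beside the urea cycle, was at 126 and 167 FPKM under vehicle and 170.4 and 192 under UAB126. Got1, the cytosolic aspartate aminotransferase, overlapped, at 85.8 and 122 against 100.1 and 194 FPKM. The mitochondrial form, Got2, was nearly level, at 137 and 119 FPKM against 133 and 118 FPKM. The alanine aminotransferases lay on opposite sides without overlap of the groups: cytosolic Gpt was at 258 and 268 FPKM against 203 and 222 FPKM (log2 difference -0.31 ± 0.22, and 0.05 after quantile normalization), and mitochondrial Gpt2 at 224 and 184 FPKM against 233 and 267 FPKM (0.30 ± 0.24). Whether Gpt and Gpt2 differed from each other was not tested. Glud1, glutamate dehydrogenase, appears only in a row shared with Gm3219, which was at 367 and 272 FPKM under vehicle and 420.2 and 383 under UAB126, and it was not counted among the 43.

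Serine and glycine breakdown held the member with the largest positive difference after Csad. Sds, serine dehydratase, a periportal enzyme that feeds serine into glucose synthesis, was at 97.1 and 196 FPKM under vehicle and 160.2 and 348 under UAB126. The groups overlapped because replicate 2 was 2.02 times replicate 1 in vehicle and 2.17 times with UAB126, and the log2 difference was 0.77 ± 0.51 (limma adjusted p = 0.503). The related Sdsl, the lowest of the 43 genes, was at 8.24 and 14.6 against 7.72 and 14.4 FPKM and thus showed the replicate gap without a gap between groups.

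Gldc, the glycine cleavage enzyme, did not overlap, at 69.6 and 76.7 FPKM under vehicle and 90.3 and 118 under UAB126 (log2 difference 0.49 ± 0.23, limma adjusted p = 0.415). Of the threonine enzymes, Tdh is listed at 0 in all 4 libraries. Gcat, the next step, appears only in a row shared with Galr3, at 38.1 and 44.5 FPKM against 43.0 and 49.3 FPKM.

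For tryptophan breakdown, none of the 3 genes named at the outset passed the threshold. Tdo2, the liver dioxygenase that opens the ring, was at 909 and 1009 FPKM under vehicle and 984 and 1143 under UAB126, with overlap. Kmo was at 156 and 139 against 131 and 116 FPKM, and Kynu at 63.0 and 60.8 against 67.4 and 73.2 FPKM, both without overlap and with log2 differences of -0.25 and 0.18. The 95% intervals were wide, from -0.53 to 0.82 for Tdo2, -0.80 to 0.30 for Kmo and -0.31 to 0.67 for Kynu. Changes within them were not detectable here. Of 8 further tryptophan genes, 4 had both UAB126 libraries below and 0 above, while the groups overlapped in 4. The corresponding shares were 26.9% below and 22.7% above over all tested symbols, and 45.5% and 9.84% from 50 FPKM upwards. Among the 4 that lay below, Haao, which makes quinolinic acid, was at 555 and 709 against 236 and 353 FPKM, and Qprt, which uses it for NAD, at 146 and 171 against 94.6 and 86.6 FPKM (log2 difference -0.80 ± 0.22, limma adjusted p = 0.274).

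Histidine is degraded by Hal, Uroc1, Amdhd1 and Ftcd in turn, and the widest gap was at Uroc1. Hal overlapped, at 96.9 and 106 FPKM under vehicle and 108 and 90.7 under UAB126. Uroc1, urocanase, was at 445 and 637 FPKM against 238 and 359.9 FPKM, or on the log2 scale a difference of -0.86 ± 0.33 (limma adjusted p = 0.368). Ftcd, which passes the carbon to folate, lay lower by less, at 236 and 219 against 187 and 162 FPKM. Amdhd1, not among the 46, was at 95.9 and 113 against 96.2 and 110.5 FPKM.

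Of the proline enzymes, 2 lay lower and 1 higher with UAB126, without overlap. Among symbols from 50 FPKM upwards 45.5% lay below and 9.84% above. The median log2 difference was -0.37 for the proline enzymes and -0.31 for those symbols. Prodh, proline dehydrogenase, was at 152 and 167 FPKM under vehicle and 114 and 133 under UAB126. Prodh2, which acts on hydroxyproline, was at 245 and 262 against 151 and 188 FPKM (log2 difference -0.58 ± 0.24, limma adjusted p = 0.375). Aldh4a1, the dehydrogenase that both routes share, was at 173 and 143 against 176 and 175 FPKM and lay slightly higher.

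The lysine enzymes lay on opposite sides. Aass, the first enzyme of lysine breakdown, had close replicates, at 80.8 and 77.9 FPKM under vehicle and 111 and 115 under UAB126. Its log2 difference was 0.51 ± 0.20 (limma adjusted p = 0.3703), and it stayed between 0.48 and 0.78 in every alternative. Gcdh, glutaryl-CoA dehydrogenase, which serves lysine and tryptophan, was at 420.4 and 414 FPKM against 278 and 330.1 FPKM (log2 difference -0.46 ± 0.24).

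Among the branched-chain enzymes, Bcat2, the aminotransferase, and Bckdhb, a subunit of the keto acid dehydrogenase, lay lowest. Bcat2 was at 31.2 and 46.4 FPKM under vehicle and 17.995 and 24.96 under UAB126 (log2 difference -0.81 ± 0.28, limma adjusted p = 0.333). Over 5175 bases it overlaps 0610005C13Rik on the opposite strand, whose level was 268 and 408 FPKM under vehicle and 141 and 229 under UAB126, so that part of the reads given to Bcat2 may belong to this more abundant transcript and the share cannot be told. Bckdhb was at 279 and 393 against 159 and 247 FPKM. The other subunits of this complex that are among the 46 genes overlapped between groups. Bckdha was at 236 in both vehicle libraries and at 224 and 288 FPKM with UAB126, and Dbt was at 29.9 and 36.8 against 34.5 and 29.4 FPKM. Ivd, the leucine enzyme isovaleryl-CoA dehydrogenase, was at 139 and 151 against 125 and 131 FPKM. Hsd17b10, a mitochondrial dehydrogenase of isoleucine breakdown that was not among the 46, was at 537 and 704 FPKM against 160 and 278 FPKM (log2 difference -1.54 ± 0.35, limma adjusted p = 0.240).

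**Figure D3:**
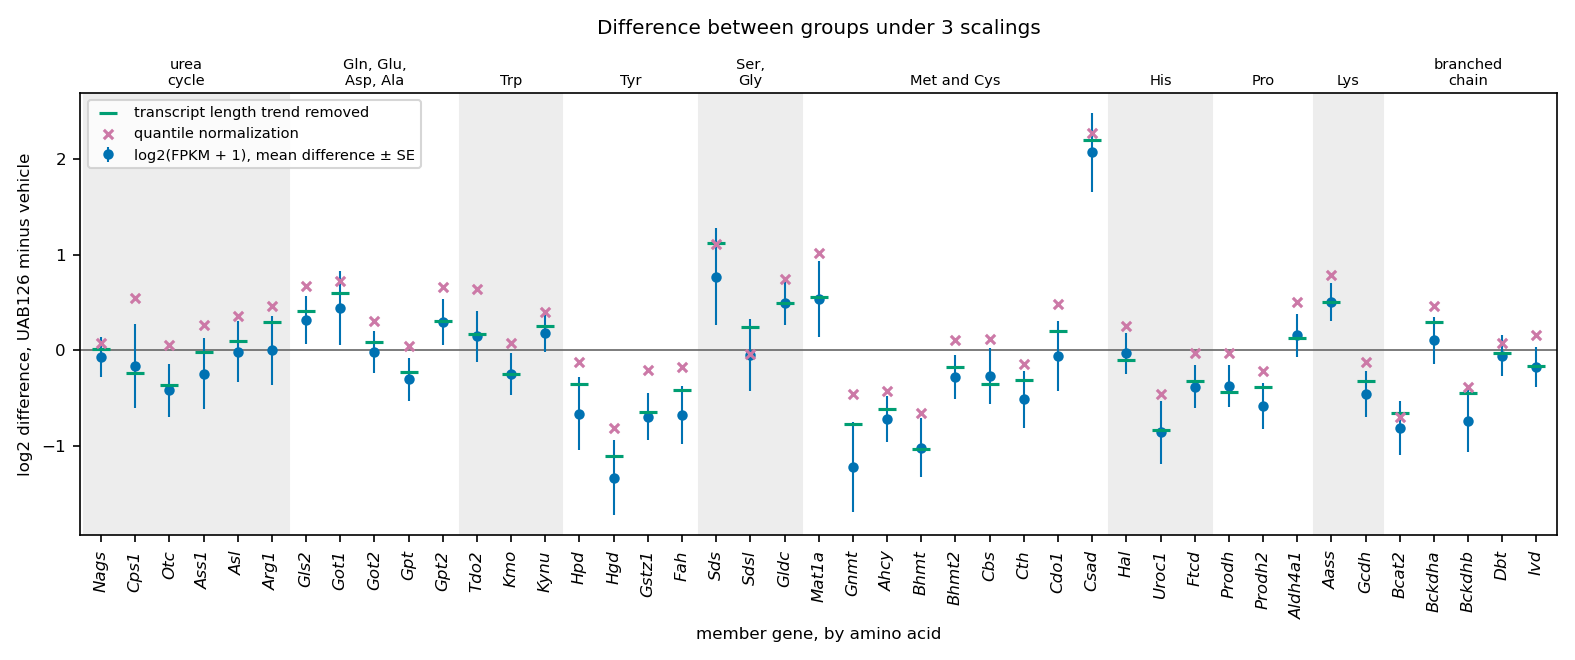
Log2 difference of UAB126 from vehicle for the 43 enzyme genes on the log2(FPKM + 1) scale (blue points with the moderated standard error), after removal of the trend with transcript length (green dashes) and after quantile normalization (pink crosses). Quantile normalization lifts most genes, so that Cps1 goes from -0.17 to 0.55, while Csad, Hgd, Bhmt and Uroc1 keep their side of 0 under all 3.

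Further genes of the same pathways were read from a wider list. Of 89 further genes of amino acid breakdown, 75 passed the filter on low values and 0 passed the limma threshold, 5 were higher and 11 lower at an unadjusted p under 0.05, and both UAB126 libraries lay above in 17 (22.7%) and below in 33 (44.0%). Over all tested symbols these shares were 5.03% and 8.38% for the unadjusted p, and 22.7% above and 26.9% below. From 50 FPKM upwards, the level of many of these genes, they were 2.43% and 15.4%, and 9.84% above and 45.5% below. Apart from Oat, Tat, Hsd17b10 and Qprt, the genes with the smallest p and no overlap included Asns, Hdc and Mpst. Asns, asparagine synthetase, builds an amino acid instead of degrading it and was at 1.04 and 1.43 FPKM under vehicle and 10.2 and 15.4 under UAB126 (log2 difference 2.60 ± 0.25, limma adjusted p = 0.0549). Hdc, histidine decarboxylase, was at 0.524 and 0.613 against 1.91 and 2.04 FPKM. Mpst, a sulfurtransferase of cysteine breakdown, was at 154 and 151 against 85.9 and 92.1 FPKM. Glul, glutamine synthetase, which catches ammonia that escapes the urea cycle, was at 673 and 649 against 383 and 421 FPKM.

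Several members mark zones of the liver lobule. The periportal list held 8 genes, of which Hal, Sds and Gls2 are enzymes described above. Both UAB126 libraries lay above in 3 of the 8 (Cyp2f2, Gls2 and Pck1) and below in 0, and the summed level was 1659 and 2042 FPKM under vehicle and 3006 and 3759 under UAB126. Most of that sum came from Cyp2f2, at 741 and 837 against 1286 and 1417 FPKM, and Pck1, at 500.5 and 592 against 1157 and 1560.4 FPKM, and the groups overlapped in 5 of the 8. Of 9 tested pericentral genes, 4 lay below (Glul, Oat, Rhbg and Axin2) and 0 above, but Axin2 was at 31318 FPKM or more in every library, a doubtful value that sets the summed level of that list. For comparison, 22.7% of all tested symbols lay above and 26.9% below, and 9.84% and 45.5% of those from 50 FPKM upwards. The part of zonation in the values of the enzymes was not tested.

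Of 20 regulators of these genes, 0 passed the limma threshold and 2 were higher and 2 lower at an unadjusted p under 0.05; 8 had both UAB126 libraries above and 4 below (40% and 20% of them, against 22.7% and 26.9% of all tested symbols; 5.03% and 8.38% for the unadjusted p). Those with the smallest p were Atf3, Foxo1, Sirt5 and Gcgr. Atf3, a stress-induced transcription factor, was at 1.38 and 1.98 FPKM under vehicle and 4.88 and 7.63 under UAB126. Foxo1, which insulin holds out of the nucleus, was at 10.6 in both vehicle libraries and at 16.4 and 20.2 FPKM with UAB126. Sirt5, which removes acyl groups from Cps1, was at 33.0 and 50.3 against 23.2 and 19.97 FPKM, and the glucagon receptor gene Gcgr at 291 and 335 against 166 and 209.7 FPKM.

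Libraries with the same number often lay on the same side of their group. Replicate 2 was above replicate 1 in both groups in 28 of the 43 genes (65.1%), near the 62.2% of all symbols from 50 FPKM upwards, and in all 4 tyrosine genes and 5 of the 6 urea cycle genes. For 20 of the 43 genes the larger of the gaps between libraries of a group was at least as wide as the difference of the group means. Bhmt went against this pattern, with replicate 2 at 0.859 times replicate 1 in vehicle and 0.633 times with UAB126. Csad and Mat1a were lower in vehicle 2 than in vehicle 1 but higher in UAB126 2 than in UAB126 1. The summed level of 8 Kupffer cell markers also differed within vehicle, at 56.4 FPKM in vehicle 1 and 160.7 FPKM in vehicle 2, against 147 and 157 FPKM with UAB126, and its part in the values was not tested.

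**Figure D4:**
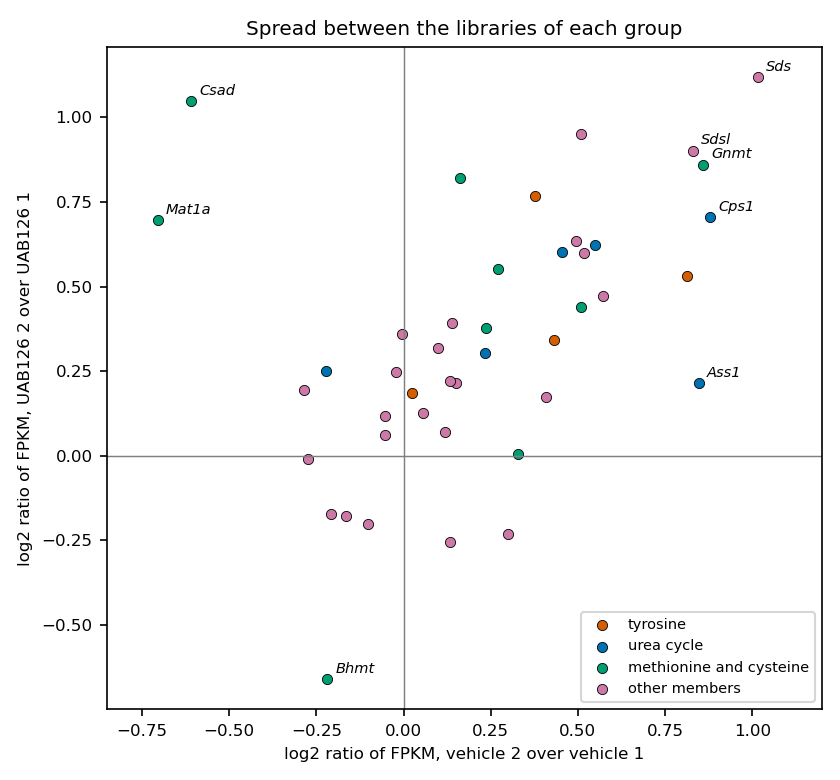
Log2 ratio of FPKM between the libraries of a group for the 43 enzyme genes, vehicle on the horizontal and UAB126 on the vertical axis. Most points lie in the upper right, such as Cps1 with ratios of 1.84 and 1.63, while Csad and Mat1a lie in the upper left and Bhmt in the lower left.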

How the data were processed

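Polyadenylated liver RNA was sequenced from both ends, per the labels' protocols. The authors deposited a table of FPKM values, made per the submitters' processing notes on mm10 with Cuffdiff and Cufflinks 2.2.1 beside STAR 2.5.1b and Trim Galore 0.4.1. The sources used here do not give annotation, strand or settings. Of 27216 rows, 3634 without a symbol were left out and rows of 1 symbol were summed. FPKM are not counts, so log2(FPKM + 1) was fitted with limma 3.58.1 in R 4.3.3 (intensity trend, group as the only term, 5.35 total degrees of freedom), two-sided, after a check on simulated data. Tables were made with Python 3.11.15, pandas 2.3.3 and scipy 1.17.1. Transcript lengths and positions came from GENCODE M21, whose positions overlapped the deposited locus for 99.3% of symbols with a single position. The genes and lists were chosen with earlier results of these data known. All 46 genes were to be named, with the 8 further pathway genes and 4 regulators of smallest p (pathway genes without overlap of the groups), of which 1 is not reported here; Alb, Kap, Axin2, Cyp2f2, Pck1, Rhbg, Amdhd1, Haao, Glul, Slc25a15 and Slc25a13 were named after their values were seen. FPKM of a few very abundant rows sets the column sums, which is why quantile normalization and median-of-ratios scaling were tried, beside other pseudocounts (0.1 and 5), filters (none and 5 FPKM), a length correction, a replicate block and fits without 1 library. The alternative that used only the highest row of each symbol was chosen after seeing the data.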

Additional observations from a re-analysis of the deposited data

How the results depend on the processing

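Of the 43 genes, 25 kept their direction in all 15 alternatives, among them the 4 tyrosine genes, Csad, Gnmt, Bhmt, Ahcy, Uroc1, Aass and Bcat2. Not every alternative could turn a direction. Those that changed only which symbols were kept, the prior spread or the replicate block left the differences as they were. Leaving out 1 library cannot turn a gene whose groups do not overlap, as in all the genes just named. None of the 43 passed the threshold except Hgd with the replicate block (1 lower, limma adjusted p = 0.0498, from 0.0498 to 0.922 over all alternatives, log2 difference -1.34) and Csad without vehicle 1; the numbers are not said to pair libraries, and across all symbols the replicate gaps of the 2 groups had a correlation of 0.179, and across the 43 genes of 0.43. The counts of all symbols past the threshold, higher and lower, were 5 and 10; the block gave 38 and 110, pseudocount 5 gave 0 and 2, and no filter gave 0 and 0. The count of higher symbols was 12 with pseudocount 0.1, 12 with quantile normalization, 10 with median-of-ratios scaling, 16 with the length trend removed, 3 with one prior spread and 8 without doubtful rows. Without 1 library these counts ran from 0 to 108 higher and from 0 to 334 lower, and those of the 43 genes from 0 to 1 higher.

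Quantile normalization moved the scale most: groups did not overlap in 17 higher and 9 lower genes (7 and 20 on the deposited scale). The shares of all symbols without overlap were not taken after quantile normalization or the length correction, so counts on those scales have no background here. The median difference of all tested symbols was 0.037 after quantile normalization. Medians became 0.10 for the 43 genes, 0.31 urea cycle, 0.66 glutamine group, 0.40 tryptophan, -0.19 tyrosine, 0.10 methionine and cysteine, -0.026 histidine, -0.028 proline, 0.33 lysine and 0.077 branched-chain. It turned Nags (0.070), Cps1 (0.55), Otc (0.057), Ass1 (0.27), Asl (0.36), Got2 (0.31), Gpt (0.046), Kmo (0.075), Bhmt2 (0.10), Cbs (0.12), Cdo1 (0.48), Hal (0.25), Dbt (0.077) and Ivd (0.16). Median-of-ratios scaling turned Asl (0.022), Got2 (0.018) and Hal (0.0038), and the histidine median was -0.34. Removing the length trend turned Nags (0.0081), Asl (0.10), Got2 (0.082), Sdsl (0.24) and Cdo1 (0.20), left 11 genes higher without overlap, and gave a histidine median of -0.32. The cause of these moves was not tested.

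Over the fits without 1 library, in which a lone library is assumed to vary like the others, 8 to 15 genes were higher and 22 to 28 lower without overlap. Groups overlap less often when 1 of them has a lone library, and the shares of all symbols were not taken for these fits. These counts can therefore not be compared with those of the full fit. The median ran from -0.33 to -0.12 for the 43 genes, -0.41 to 0.19 for the urea cycle, -0.054 to 0.099 for lysine, 0.066 to 0.39 for the glutamine group, 0.039 to 0.24 for tryptophan, -0.95 to -0.56 for tyrosine, -0.54 to -0.13 for methionine and cysteine and -0.48 to -0.28 for histidine. Directions turned for Nags (-0.20 to 0.048), Cps1 (-0.60 to 0.27), Ass1 (-0.67 to 0.18), Asl (-0.32 to 0.28), Arg1 (-0.31 to 0.31), Got1 (-0.032 to 0.91), Got2 (-0.12 to 0.084), Sdsl (-0.46 to 0.36), Cbs (-0.54 to 0.0085), Cdo1 (-0.47 to 0.35), Hal (-0.16 to 0.093), Bckdha (-0.075 to 0.28) and Dbt (-0.20 to 0.088). The depth behind each value is unknown, which limits low genes such as Sdsl most.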
